A study of Mus musculus with 4 samples.

Results

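Members of the S100 calcium-binding family, S100a8, S100a9, S100a1, S100a4, S100a6, S100a10, S100a11, S100a13, S100a14 and S100a16, were followed in bulk mouse mammary tumours by poly(A) RNA-seq. They were taken by gene symbol from the 20555 genes of the deposited table, and all 10 were found there. The tumours came from 2 groups with 2 libraries each. The first, MYC-PyMT, is labelled S100a8-creRosa26-LSL-MYCPyMT, a genotype that joins a Cre recombinase driven by S100a8, a MYC allele at Rosa26 behind a loxP-stop-loxP cassette, and PyMT. The second, Control-PyMT, carries PyMT alone, the polyoma middle T oncogene, which both groups therefore share. Strain, age, sex and the promoter of PyMT are not given in the labels. In MYC-PyMT the MYC allele is opened only in cells, or progeny of cells, in which the S100a8 promoter has driven Cre, so S100a8 itself marks the control element of the model. Nothing in the labels ties the libraries of a group to separate mice, so each p-value rests on differences among the 4 libraries, and these may include technical ones. The limma p-values and intervals below also draw on spread pooled over genes, so they do not measure the spread of a single gene alone.

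S100 proteins are small EF-hand proteins that bind calcium, mostly pair up, and then bind partner proteins inside the cell or, once released, receptors on other cells. S100a8 and S100a9 form calprotectin, the most abundant cytosolic protein of neutrophils, which also binds zinc and manganese. S100a10 and S100a11 bind annexins at membranes, S100a4 binds non-muscle myosin and is known from motile and metastatic cells, and S100a14 and S100a16 are known from epithelia.

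Every value in the table was a whole multiple of what 1 read was worth in its library, within 0.001 reads, and the totals were 34190913 and 31783846 reads in MYC-PyMT and 32245080 and 32879311 in Control-PyMT. All values below are the authors' scaled counts, which are read counts divided by a factor per library and not by gene length. The mouse Myc gene stood at 3215 and 2815 scaled counts in MYC-PyMT and 1832 and 2820 in Control-PyMT, with a log2 change of 0.40 (SE 0.23, limma adjusted p = 0.172). The labels do not say of which species the MYC allele is. Epithelium was represented in every library. Its keratin gene Krt8 had 22210.5 and 28747 scaled counts in MYC-PyMT and 28743 and 27667 in Control-PyMT, and its adhesion gene Epcam had 19648 and 19804 in MYC-PyMT and 26099 and 23374 in Control-PyMT.

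S100a16, S100a13, S100a6, S100a11 and S100a1 fell in MYC-PyMT tumours, S100a16 by the most, and the calprotectin subunit gene S100a9 rose. By limma on log2(scaled count + 1), with Benjamini-Hochberg adjustment over 16725 tested genes and a threshold of 0.05, 5 of the 10 fell, 1 rose and 4 did not pass. Of all tested genes 24.6% fell and 23.3% rose, 47.9% in either direction. The median log2 change was -0.70 over the 10 genes and -0.02 over all tested genes. All 10 passed the filter of at least 10 scaled counts in at least 2 libraries. The groups did not overlap for 6 of the 10 genes, 5 lower and 1 higher, against 38.7% of all tested genes lower and 37% higher without overlap.

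**Figure D1:**
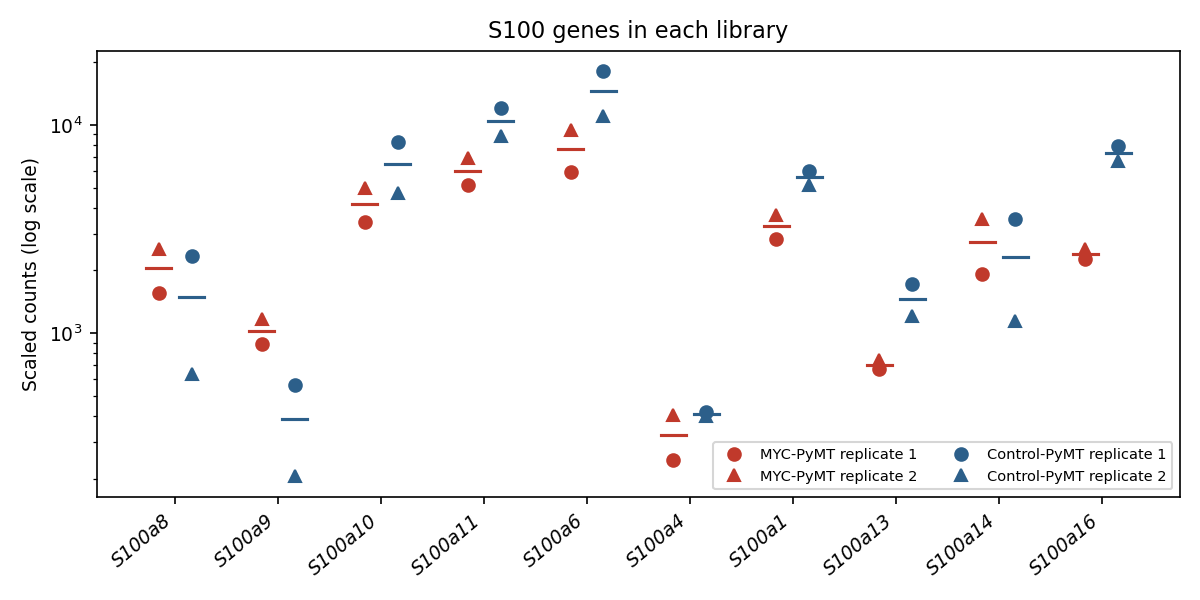
Scaled counts on a log axis of the 10 S100 genes in each library, MYC-PyMT in red and Control-PyMT in blue, with a bar at the group mean and circles for replicate 1 and triangles for replicate 2. S100a16 was lower in both MYC-PyMT libraries (2263 and 2546) than in either Control-PyMT library (7917 and 6706), while the S100a8 libraries overlap.

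**Figure D2:**
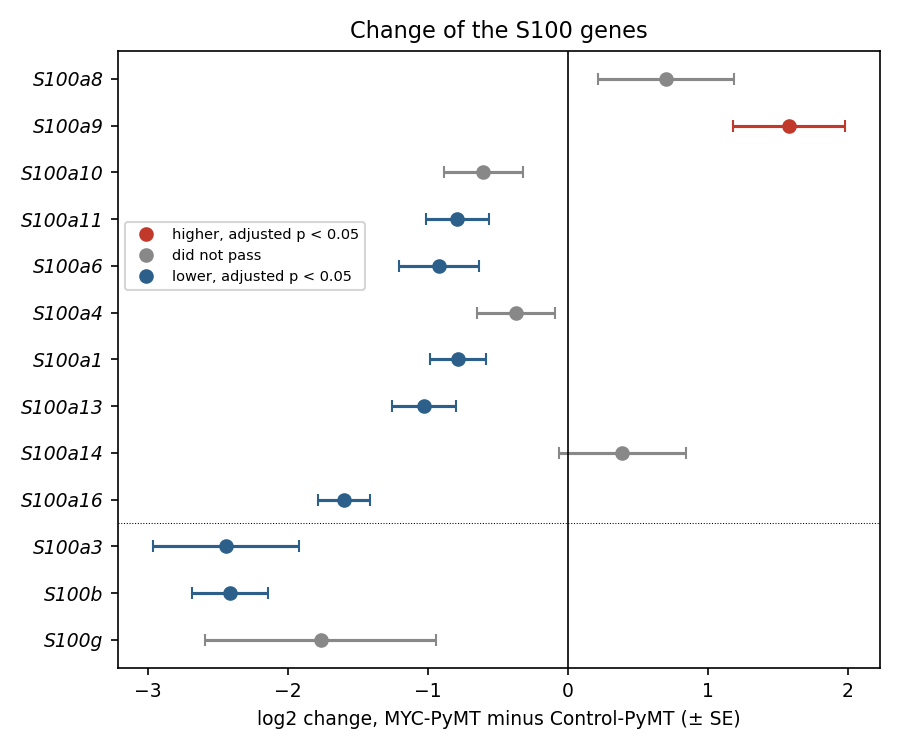
Log2 change, MYC-PyMT minus Control-PyMT, with its SE for the 10 S100 genes (above the dotted line) and 3 further S100 genes (below it). S100a9 stands at 1.58 and S100a16 at -1.60, and grey points did not pass the threshold.

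S100a9, the larger calprotectin subunit, had 886 and 1169 scaled counts in MYC-PyMT and 564 and 205 in Control-PyMT. Both MYC-PyMT libraries were above both Control-PyMT libraries, and the gene rose by a log2 change of 1.58 (SE 0.40, limma adjusted p = 0.00925), or 2.99-fold. S100a8, its partner and the Cre driver, had 1564 and 2524 scaled counts in MYC-PyMT and 2338 and 639 in Control-PyMT. Its groups overlapped, since Control-PyMT replicate 1 lay between the MYC-PyMT libraries and only Control-PyMT replicate 2 was low. The S100a8 log2 change of 0.70 did not pass (95% interval -0.39 to 1.79, limma adjusted p = 0.260). Set against each other within a library, S100a8 had 1.77 and 2.16 times the scaled counts of S100a9 in MYC-PyMT and 4.15 and 3.12 times in Control-PyMT, without overlap. That is a mean ratio of 1.96 ± 0.28 in MYC-PyMT and 3.63 ± 0.73 in Control-PyMT (SD, n = 2 each), and an exact two-sided permutation test gave p = 0.33, the smallest that 2 libraries against 2 allow. The S100a9 call was lost without the variance trend (limma adjusted p = 0.0536) and once each library's trend with transcript length was removed (log2 0.86, 0.0815). A fit without 1 library leaves 1 library in its group, whose spread cannot then be measured, so only its log2 change is given. The S100a9 change was 0.85 without Control-PyMT replicate 2. Without Control-PyMT replicate 1 the S100a9 change was 2.31. The S100a8 change ran from -0.23 without Control-PyMT replicate 2 to 1.64 without Control-PyMT replicate 1. It was 1.05 without MYC-PyMT replicate 1 and 0.36 without MYC-PyMT replicate 2.

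S100a8 (chromosome 3, 90668978 to 90670035, plus strand) and S100a9 (chromosome 3, 90692632 to 90695721, minus strand) lie 22.6 kb apart in GENCODE M21 on GRCm38, with their 3′ ends facing each other. Their promoters are shown because that of S100a8 is the element named in the Cre allele and that of S100a9 belongs to the gene that rose. Each window, from RefSeq on GRCm38.p6, runs from 250 bases before the RefSeq start to 50 after it, and need not be the stretch used in the allele. Capitals mark a TATA box (TATAAA, given strand) or a motif of C/EBP transcription factors (TTGCNNAA, both strands).
S100a8, chr3:90668821-90669120, plus strand: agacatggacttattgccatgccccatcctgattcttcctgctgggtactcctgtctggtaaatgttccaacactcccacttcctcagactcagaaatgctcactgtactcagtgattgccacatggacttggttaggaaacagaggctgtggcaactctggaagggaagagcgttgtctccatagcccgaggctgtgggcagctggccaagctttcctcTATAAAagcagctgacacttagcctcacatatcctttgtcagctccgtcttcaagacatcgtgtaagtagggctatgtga
S100a9, chr3:90695672-90695971, minus strand: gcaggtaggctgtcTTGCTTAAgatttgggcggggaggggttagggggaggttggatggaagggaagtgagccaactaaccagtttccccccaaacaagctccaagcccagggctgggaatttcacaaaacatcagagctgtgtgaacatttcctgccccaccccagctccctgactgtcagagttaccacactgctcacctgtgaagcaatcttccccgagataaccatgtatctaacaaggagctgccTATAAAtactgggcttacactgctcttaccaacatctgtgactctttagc
The TATA box of S100a8 starts 30 bases before the RefSeq start, and that of S100a9 starts at the RefSeq start itself. TATAAA occurs in 8.32% of 32851 mouse promoter windows of this length and in those of 3 genes here, S100a4, S100a8 and S100a9. The C/EBP letters occur in 10.8% of all windows and, among the 8 of these genes that have a window, in S100a9 alone. Such matches describe letters and not binding.

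S100a10 and S100a11, the annexin binders, were the third and the first most abundant per kilobase in the mean of MYC-PyMT as of Control-PyMT. S100a11, a partner of annexin A1, had 5128 and 6905 scaled counts in MYC-PyMT and 12019 and 8802 in Control-PyMT. It fell by 0.79 on the log2 scale (SE 0.23, limma adjusted p = 0.0165), with both MYC-PyMT libraries below both Control-PyMT libraries. S100a10, which pairs with annexin A2 in a complex that binds plasminogen, had 3397 and 4953 in MYC-PyMT and 8262 and 4718 in Control-PyMT. Its groups overlapped and its log2 change of -0.61 did not pass (95% interval -1.23 to 0.02, limma adjusted p = 0.102). Anxa2, the gene of that partner, had 7674 and 11087 scaled counts in MYC-PyMT and 26850.5 and 18179 in Control-PyMT, and fell by 1.26 on the log2 scale (SE 0.25, adjusted p = 0.00285). Anxa1 had 10883 and 18158 in MYC-PyMT and 26837 and 11965 in Control-PyMT, which overlap, with a log2 change of -0.35 (adjusted p = 0.452). Both annexins were chosen for description after their values were seen. The S100a11 call was lost with no variance trend (limma adjusted p = 0.0683). Its log2 change shrank to -0.56 without Control-PyMT replicate 1 and to -0.57 without MYC-PyMT replicate 1. The S100a10 change ranged from -1.01 without Control-PyMT replicate 2 to -0.20 without Control-PyMT replicate 1, and was -0.88 without MYC-PyMT replicate 2.

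S100a6, or calcyclin, a gene of proliferating and stromal cells, fell as well. It had 5923 and 9444 in MYC-PyMT and 18140.0 and 11041 in Control-PyMT. The change was -0.92 on the log2 scale (SE 0.29, limma adjusted p = 0.0237), and the groups did not overlap. S100a4, the metastasis-associated myosin binder, had 245 and 406 scaled counts in MYC-PyMT and 417 and 398 in Control-PyMT. MYC-PyMT replicate 1 was the low library, while MYC-PyMT replicate 2 lay between the Control-PyMT libraries. The S100a4 log2 change of -0.37 did not pass (95% interval -1.001 to 0.26, limma adjusted p = 0.303), and it was -0.01 without MYC-PyMT replicate 1. Exons of S100a4 share 302 bases with Gm42674, a gene on the same strand that also overlaps S100a3, so its reads may be shared. The S100a6 call was lost with no variance trend (limma adjusted p = 0.09165). Its log2 change was -0.56 without Control-PyMT replicate 1, -1.28 without Control-PyMT replicate 2 and -0.58 without MYC-PyMT replicate 1.

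S100a6 and S100a11 were the 2 of 8 genes whose promoter window holds CACGTG, the E-box bound by MYC with MAX, in capitals below. Both fell in the group with the MYC allele, which is why they are shown.
S100a6, chr3:90612644-90612943, plus strand: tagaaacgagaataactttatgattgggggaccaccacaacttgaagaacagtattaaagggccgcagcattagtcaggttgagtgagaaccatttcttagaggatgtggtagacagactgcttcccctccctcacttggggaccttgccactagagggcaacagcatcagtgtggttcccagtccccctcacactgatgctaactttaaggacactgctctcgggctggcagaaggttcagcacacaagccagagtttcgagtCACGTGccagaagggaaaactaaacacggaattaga
S100a11, chr3:93520246-93520545, plus strand: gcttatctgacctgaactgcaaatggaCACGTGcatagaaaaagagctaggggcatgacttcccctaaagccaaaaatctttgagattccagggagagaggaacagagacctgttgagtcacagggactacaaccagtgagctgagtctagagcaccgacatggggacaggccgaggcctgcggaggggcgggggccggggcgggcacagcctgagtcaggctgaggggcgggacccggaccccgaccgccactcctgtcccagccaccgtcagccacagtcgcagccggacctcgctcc
The E-box starts 14 bases after the RefSeq start in S100a6 and 223 bases before it in S100a11. The same 6 letters, which read alike on both strands, are in 7.15% of the 32851 windows. A match of letters does not show that MYC binds there.

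S100a16, a widely expressed epithelial member, had the largest fall of the 10. It had 2263 and 2546 scaled counts in MYC-PyMT and 7917 and 6706 in Control-PyMT, a log2 change of -1.60 (SE 0.19, limma adjusted p = 0.000138). Both MYC-PyMT libraries lay far under both Control-PyMT libraries, with little spread within either group. S100a13, which takes part in the unconventional release of FGF1 and interleukin 1 alpha, had 671 and 739.6 in MYC-PyMT and 1721 and 1204 in Control-PyMT. It fell by 1.03 on the log2 scale (SE 0.23, limma adjusted p = 0.00445), and its groups did not overlap. S100a1, best known from heart muscle, where it acts on calcium release channels, had 2833 and 3688 in MYC-PyMT and 6022 and 5156.5 in Control-PyMT. It fell by 0.79 on the log2 scale (SE 0.20, limma adjusted p = 0.00972), again without overlap.

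S100a14, an epithelial member, lies between S100a13 and S100a16. It had 1931 and 3539 scaled counts in MYC-PyMT and 3514 and 1137 in Control-PyMT. Replicate 2 was the high library in MYC-PyMT and replicate 1 in Control-PyMT, so the groups overlapped. Its log2 change of 0.39 did not pass (95% interval -0.63 to 1.40, limma adjusted p = 0.508). The value was -0.43 when Control-PyMT replicate 2 was left out and 1.20 when Control-PyMT replicate 1 was. Leaving out MYC-PyMT replicate 2 gave -0.05, and leaving out MYC-PyMT replicate 1 gave 0.82. S100a13, S100a16 and S100a1 passed in every alternative that kept all 4 libraries. With a library left out, the log2 change ran from -1.29 to -0.77 for S100a13 and from -1.72 to -1.48 for S100a16. The S100a1 change was -0.67 on leaving out Control-PyMT replicate 1 and -0.90 on leaving out Control-PyMT replicate 2. On leaving out MYC-PyMT replicate 1 it was -0.60, and on leaving out MYC-PyMT replicate 2 it was -0.98.

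S100a1 (chromosome 3, 90511034 to 90514392, minus strand) and S100a13 (90514435 to 90524581, plus strand) are divergent neighbours, and both fell. Their promoter windows share 204 bases, and the S100a1 window is shown with that shared stretch in capitals, since the windows of both genes hold it.
S100a1, chr3:90514281-90514580, minus strand: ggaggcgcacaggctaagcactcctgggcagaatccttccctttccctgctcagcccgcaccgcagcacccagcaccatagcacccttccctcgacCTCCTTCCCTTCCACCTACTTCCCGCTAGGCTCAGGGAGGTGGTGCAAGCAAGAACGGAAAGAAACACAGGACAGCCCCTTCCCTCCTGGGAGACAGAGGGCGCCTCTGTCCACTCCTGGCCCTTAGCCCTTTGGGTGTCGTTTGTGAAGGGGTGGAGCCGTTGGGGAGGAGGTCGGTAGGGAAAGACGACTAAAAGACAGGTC
S100a14 begins 2.275 kb beyond the end of S100a13, and S100a16 8.42 kb beyond S100a14, all on the plus strand. The 4 genes in a row therefore hold 3 falls with S100a14 among them. Neither the S100a1 window nor those of S100a13 and S100a16 hold any of the 3 motifs.

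The order of abundance can be compared once values are divided by transcript length. Per kilobase of the longest basic GENCODE transcript, S100a11 averaged 11774 ± 2458 scaled counts in MYC-PyMT and 20373 ± 4452 in Control-PyMT (SD, n = 2 each). S100a6 averaged 10512 ± 3406 in MYC-PyMT and 19960 ± 6867 in Control-PyMT, and the ranges of these 2 genes overlapped in either group. Ranges here were taken over libraries, without pairing the genes of the same library. In MYC-PyMT the order went on with S100a10, S100a1, S100a8, S100a14, S100a16, S100a9, S100a13 and S100a4. Neighbours in it overlapped except for S100a6 above S100a10, S100a9 above S100a13 and S100a13 above S100a4. Within each MYC-PyMT library the order was the same, except that S100a16 stood above S100a14 in replicate 1. In Control-PyMT it went on with S100a10, S100a1, S100a16, S100a8, S100a14, S100a13, S100a4 and S100a9. There the gaps without overlap were S100a6 above S100a10, S100a1 above S100a16, S100a16 above S100a8 and S100a13 above S100a4. Within Control-PyMT replicate 1 the order differed in that S100a6 stood above S100a11 and S100a9 above S100a4. Within Control-PyMT replicate 2 it differed in that S100a1 stood above S100a10, and S100a13 above S100a8 and S100a14. S100a9 thus was last of the 10 by its mean in Control-PyMT and above S100a13 and S100a4 in MYC-PyMT.

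The summed level of the 10 genes was 37469.7 and 54006 scaled counts per kilobase in MYC-PyMT and 88776 and 58049 in Control-PyMT. The highest MYC-PyMT library was below the lowest Control-PyMT library, by a small margin. S100a8 and S100a9 together made up 13.1% and 13.8% of that sum in MYC-PyMT and 6.64% and 2.94% in Control-PyMT. S100a16 made up 5.36% and 4.18% in MYC-PyMT and 7.91% and 10.25% in Control-PyMT. These are levels in bulk tissue, where fewer cells of a type and less RNA per cell cannot be told apart.

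**Figure D3:**
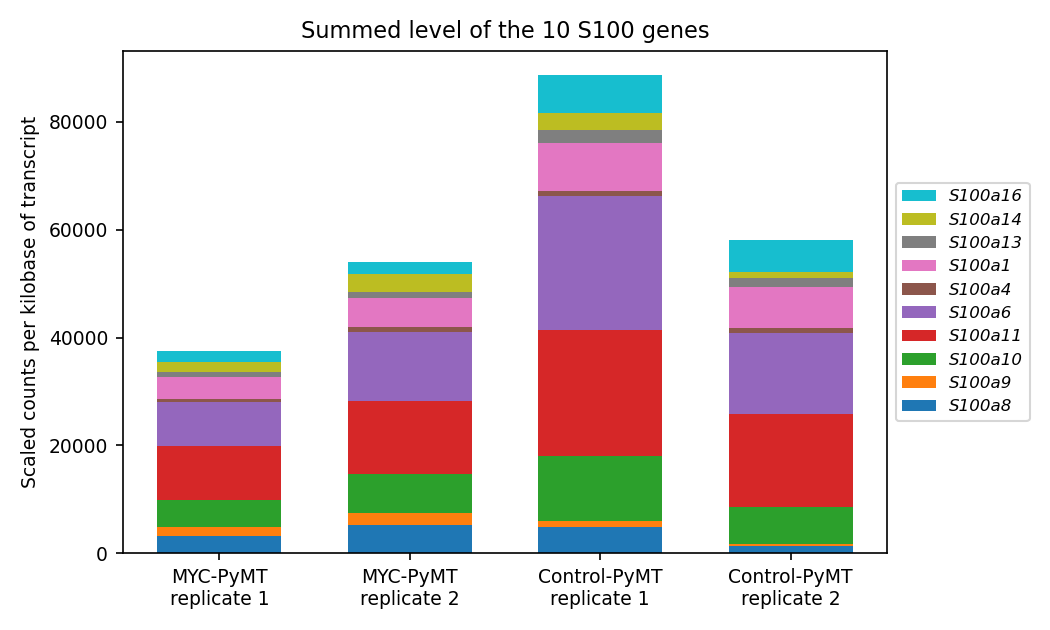
Stacked scaled counts per kilobase of transcript of the 10 S100 genes in each library. The stacks reach 37469.7 and 54006 in MYC-PyMT and 88776 and 58049 in Control-PyMT, with S100a11 and S100a6 as the largest blocks.

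Libraries of the same group differed in the same direction for every one of the 10 genes. MYC-PyMT replicate 2 was above MYC-PyMT replicate 1 for 10 of 10, by 1.10 to 1.83 times. Control-PyMT replicate 1 was above Control-PyMT replicate 2 for 10 of 10, by 1.05 to 3.66 times, S100a8 having the widest gap. Of all tested genes 31.9% had both of these orders, and of the 1625 tested genes with transcripts as short as the S100 genes (486 to 1127 bases) 39.9%. Replicate numbers have no order, and the source of this shared spread was not tested.

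**Figure D4:**
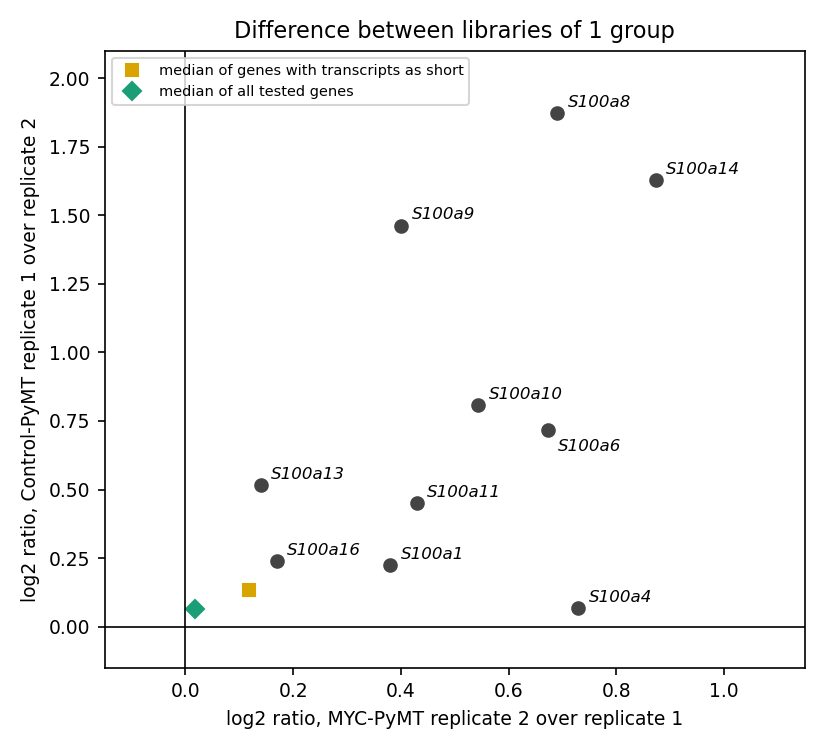
Log2 ratio of the 2 MYC-PyMT libraries (replicate 2 over replicate 1) against that of the 2 Control-PyMT libraries (replicate 1 over replicate 2) for the 10 S100 genes, with the medians of all tested genes and of tested genes with transcripts of 486 to 1127 bases. All 10 genes lie above 0 on both axes, while the medians of all tested genes are 0.02 and 0.07.

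Short transcripts as a whole were higher in MYC-PyMT, while 5 of the 10 S100 genes fell. The median log2 change of the 1625 tested genes of 486 to 1127 bases was 0.49, with 35.6% higher and 12.8% lower. With each library's trend with transcript length removed, S100a1, S100a4, S100a6, S100a10, S100a11, S100a13 and S100a16 all passed as lower, 7 of the 10. None was higher there, where S100a8 stood at -0.05 (limma adjusted p = 0.942) and S100a14 at -0.02 (0.973). In that fit 3844 of all 16725 tested genes were lower and 3657 higher. Such a correction also takes out any change that genes of like length share, and the part of RNA quality in the trend was not tested (integrity numbers of 3.3 to 9.6 are given for the samples as a whole).

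**Figure D5:**
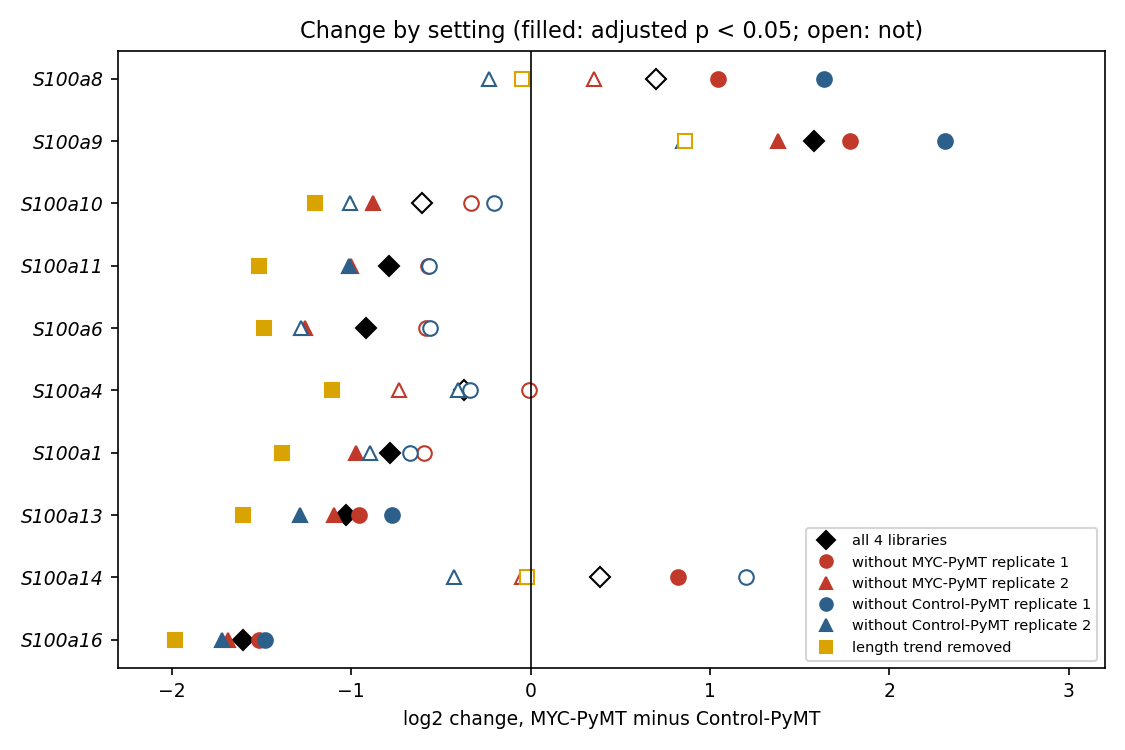
Log2 change, MYC-PyMT minus Control-PyMT, of the 10 S100 genes with all 4 libraries, without each library and with the transcript length trend removed. Filled symbols passed an adjusted p of 0.05. In the fits without a library the filling is not to be read as a call, since 1 library is left in a group. S100a13 and S100a16 lie below 0 throughout, and S100a8 and S100a14 have values on both sides of 0.

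Of the other S100 genes, 4 had a row, and 3 of them fell, against 24.6% of all tested genes. S100a7a, a skin antimicrobial member, had no read in either MYC-PyMT library against 342 and 91.7 scaled counts in Control-PyMT, at least 68.7-fold lower on a floor of 3 reads per library (limma adjusted p = 2.635e-05). That bound was 29.0-fold without Control-PyMT replicate 1 and 108-fold without Control-PyMT replicate 2. S100b, known from glia and melanocytes, had 106 and 160.4 scaled counts in MYC-PyMT and 687 and 709 in Control-PyMT, a log2 change of -2.41 (SE 0.27, adjusted p = 0.000114). S100a3, a hair cuticle member, had 20.1 and 29.7 in MYC-PyMT and 247 and 76.4 in Control-PyMT, and fell by 2.44 on the log2 scale (SE 0.52, adjusted p = 0.00379). Without Control-PyMT replicate 1 the S100a3 change shrank to -1.605. S100g, a calbindin of calcium-absorbing epithelia, had 11.1 and 31.9 in MYC-PyMT and 184 and 23.8 in Control-PyMT, which overlap, and did not pass (log2 -1.77, adjusted p = 0.103). It passed with the length trend removed (-2.52, adjusted p = 0.0261). Leaving out Control-PyMT replicate 2 gave a log2 change of -3.22, and leaving out Control-PyMT replicate 1 gave -0.32. Dropping MYC-PyMT replicate 2 gave -2.49, and dropping MYC-PyMT replicate 1 gave -1.04. S100a2, S100a5, S100a7l2, S100p and S100z were not analysed here.

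S100-fused genes, long epidermal genes whose proteins begin with an S100 domain, fell in 7 of 7 cases with a median log2 change of -4.54. Over all tested genes 24.6% fell. Tchh, trichohyalin of the hair root sheath, had 65.4 and 63.7 scaled counts in MYC-PyMT and 2256 and 1035 in Control-PyMT (log2 -4.54, limma adjusted p = 1.52e-05). Rptn, repetin, had 1.01 and 3.30 in MYC-PyMT and 1827 and 311 in Control-PyMT. Tchhl1 had 0 and 1.10 in MYC-PyMT and 238 and 79.0 in Control-PyMT. MYC-PyMT replicate 2 was above MYC-PyMT replicate 1 for 4 of these 7, Control-PyMT replicate 1 was above Control-PyMT replicate 2 for 6, and both held for 3, against 52.4%, 55.7% and 31.9% of all tested genes. Of 9 tested keratinocyte and hair markers 8 fell and 1 rose, with Krt25 at 0 in both MYC-PyMT libraries against 470.4 and 246 scaled counts in Control-PyMT. Krt27 had 2.01 and 1.10 in MYC-PyMT and 423 and 208 in Control-PyMT, and Krt1 4.03 and 6.59 in MYC-PyMT and 778 and 249.7 in Control-PyMT. The marker that rose was Sbsn, a secreted keratinocyte protein, with 3525 and 6067 scaled counts in MYC-PyMT and 1332 and 901 in Control-PyMT (log2 2.08, limma adjusted p = 0.000306). The list summed to 3702 and 6396 scaled counts in MYC-PyMT and 4731 and 2585 in Control-PyMT. Without Sbsn, a choice made after the values were seen, the sums were 177 and 329 in MYC-PyMT and 3399 and 1683 in Control-PyMT. The part of these cells in the falls of the S100 genes was not tested.

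Among 14 receptors and signalling partners of S100a8 and S100a9, 2 rose, 2 fell and 10 did not pass (median log2 -0.30). The shares of all tested genes were 23.3% higher and 24.6% lower. Tlr4, the lipopolysaccharide receptor that calprotectin also engages, had 1068 and 1446 scaled counts in MYC-PyMT and 2389 and 1522 in Control-PyMT (log2 -0.62, limma adjusted p = 0.0697), and was chosen after its values were seen, as was Ager. Ager, the receptor RAGE, was low and rose, with 105 and 139.6 scaled counts in MYC-PyMT and 39.3 and 58.6 in Control-PyMT (log2 1.31, adjusted p = 0.0126). Cd36, a scavenger receptor that binds the arachidonic acid carried by calprotectin, rose to 1214 and 875 in MYC-PyMT, against 469 and 500.3 in Control-PyMT (log2 1.09, adjusted p = 0.00355). Cybb, the catalytic NADPH oxidase subunit to which calprotectin delivers that acid, had 739.7 and 715 in MYC-PyMT and 1868 and 1491 in Control-PyMT, and fell by 1.20 on the log2 scale (adjusted p = 0.00110). Alcam, an adhesion molecule, had 369 and 433 in MYC-PyMT and 2798 and 1822 in Control-PyMT, a log2 change of -2.49 (adjusted p = 5.47e-05).

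Annexins and other partners of the other S100 genes fell in 7 of 11 tested cases, rose in 1 and did not pass in 3 (median log2 -0.92). Over all tested genes 24.6% fell and 23.3% rose. Fgf1, the growth factor released with S100a13, had 74.5 and 60.4 scaled counts in MYC-PyMT and 5080.0 and 4672 in Control-PyMT, and fell by 6.16 on the log2 scale (limma adjusted p = 6.72e-07). Anxa6 had 7233 and 6218 in MYC-PyMT and 13862 and 13035 in Control-PyMT (log2 -1.003, adjusted p = 0.00182). Cacybp, which binds S100a6 and takes part in beta-catenin degradation, was the one that rose. It had 10754 and 14335 scaled counts in MYC-PyMT and 4223 and 2867 in Control-PyMT (log2 1.83, adjusted p = 0.000231), opposite to the fall of S100a6.

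Neutrophils are the cells best known for S100a8 and S100a9, and their markers split, with 10 higher, 4 lower and 8 not past the test of 22 (median log2 1.01). Over all tested genes 23.3% were higher and 24.6% lower. Prtn3, proteinase 3, had 1106 and 1685 scaled counts in MYC-PyMT and 165 and 206 in Control-PyMT (log2 2.88, limma adjusted p = 3.945e-05). Ngp, a granule protein, had 81.5 and 89.0 in MYC-PyMT and 3.74 and 4.25 in Control-PyMT (log2 4.11, adjusted p = 7.28e-05). Ltf, lactoferrin, which mammary epithelium also makes, had 7265 and 6018 in MYC-PyMT and 31535 and 20549.6 in Control-PyMT, a log2 change of -1.94 (adjusted p = 0.0001805). The receptors Csf3r and Cxcr2, chosen after their values were seen, did not pass, with 141 and 103 and with 43.3 and 40.7 scaled counts in MYC-PyMT and with 161 and 149 and with 87.0 and 30.6 in Control-PyMT. The list summed to 69354 and 68036 scaled counts in MYC-PyMT and 149838 and 120589 in Control-PyMT. Without Lcn2 and Ltf, a choice made after the values were seen, the sums were 2941 and 3806 in MYC-PyMT and 2199 and 1364 in Control-PyMT. In MYC-PyMT most of these sums came from Prtn3 and Padi4. Padi4 had 781 and 987 in MYC-PyMT and 321 and 261 in Control-PyMT. Il1b went the other way, with 72.5 and 81.3 in MYC-PyMT and 708 and 330 in Control-PyMT. Padi4 and Il1b were also named after their values were seen. Stfa2 had 11.1 and 16.5 in MYC-PyMT and no read in Control-PyMT, and Stfa1 and Stfa2l1 rose as well. Stfa3 fell, with 3.02 and 19.8 in MYC-PyMT and 151 and 45.0 in Control-PyMT. The Stfa genes were named after their values were seen. The part of neutrophil number in the levels of S100a8 and S100a9 was not tested.

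Other cell types that express S100 genes were followed by their markers, and their part in the S100 values was not tested either. The counts below stand beside 24.6% of all tested genes lower and 23.3% higher. Macrophage and monocyte markers rose in 3, fell in 4 and did not pass in 8 of 15 cases, summing to 37353 and 40911.5 scaled counts in MYC-PyMT and 31542 and 32763.5 in Control-PyMT. Among them Cd68 and Msr1 had log2 changes of 1.38 and 1.53 (limma adjusted p = 0.000312 and 0.00198). Csf1r, Itgam and Fcgr1 fell, with log2 changes of -0.63, -0.84 and -0.76 (limma adjusted p = 0.0449, 0.0229 and 0.0337). Lyz2, which rose, was the largest part of the sums, with 19195 and 19692 in MYC-PyMT and 12560 and 10767 in Control-PyMT. These last 4 genes were named after their values were seen. Of 11 tested T and NK cell markers 10 fell and 1, Cd4, rose. The list summed to 173 and 182 in MYC-PyMT and 569.5 and 629 in Control-PyMT. Gzma had 2.01 and 1.10 in MYC-PyMT and 73.9 and 101 in Control-PyMT, and Cd8a and Cd3g had log2 changes of -4.05 and -3.66.

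Fibroblasts are among the cells known for S100a4 and S100a6, and their markers fell in 2, rose in 2 and did not pass in 8 of 12 cases. For these counts and those below, the shares of all tested genes were 24.6% lower and 23.3% higher. The fibroblast markers summed to 23697 and 34607 scaled counts in MYC-PyMT and 23711 and 33944 in Control-PyMT. Dcn, Pdgfra and Pdgfrb had log2 changes of -2.22, -1.31 and 0.77 (limma adjusted p = 3.46e-05, 0.00406 and 0.0482). Luminal epithelial markers fell in 9 of 16 cases and did not pass in 7, with sums of 131762 and 139537 in MYC-PyMT and 184979 and 179714 in Control-PyMT. Foxa1, Esr1 and Kit had log2 changes of -5.09, -2.79 and -2.03. Basal epithelial markers fell in 6 of 9 cases and rose in 1, with sums of 11729 and 25688 in MYC-PyMT and 47534 and 47749.7 in Control-PyMT. The contractile genes Mylk, Myh11 and Cnn1 had log2 changes of -4.29, -5.38 and -6.32. The basal keratin gene Krt14 was the one that rose, with 4828 and 13476 scaled counts in MYC-PyMT and 4673 and 2481 in Control-PyMT (log2 1.24, adjusted p = 0.0369). Krt17 and Krt5 had positive log2 changes that did not pass (0.71 and 0.53, adjusted p = 0.119 and 0.169). These 3 keratins were named after their values were seen.

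Among genes averaging at least 50 scaled counts, the pattern nearest to that of S100a8 over the 4 libraries was that of Anxa8, at a Euclidean distance of 0.11 between centred log2 values. Anxa8, an annexin of epithelia, had 1286 and 1893 scaled counts in MYC-PyMT and 1758 and 507 in Control-PyMT. Aqp9, a water and glycerol channel of leukocytes and liver, followed at 0.27, and S100a14 at 0.38. S100a9, the protein partner, was farther from S100a8 than S100a14 was, at 0.95. The nearest to S100a9 were Zik1 (0.17), Fgl1 (0.32) and Trpv6 (0.36), with log2 changes of 1.59, 1.75 and 1.41. With 4 libraries such likeness is a description.

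The 10 genes sit in 2 stretches of mouse chromosome 3. A stretch of 184688 bases (90511034 to 90695721) holds 8 of them, and S100a11 and S100a10 lie 2825 kb further on. Of 5 non-S100 genes within 100 kb before the first stretch, Ints3, Npr1, Ilf2, Snapin and Chtop, none passed the test, with log2 changes of -0.50 to 0.49. At the other end Pglyrp4, a peptidoglycan recognition protein, had 15.1 and 14.3 scaled counts in MYC-PyMT and 111 and 30.6 in Control-PyMT, a log2 change of -1.92 (limma adjusted p = 0.0189), and Gm35013 was too low to test. The genes with a row within 100 kb of S100a11 and S100a10 were Tchh and Tchhl1, which fell as given above.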

How the data were processed

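Per the labels' protocols, tumour RNA with integrity numbers of 3.3 to 9.6 over the samples went into a stranded poly(A) TruSeq preparation, and which library had which number is not given. Per the submitters' processing notes, HISAT2, DESeq2 and mm10 (GRCm38.p5) were used. Which program counted reads, with which annotation and strand option, was not given in the sources used here. The deposited values are a signal, scaled counts per gene, and were whole reads divided by a factor per library.

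Values plus a pseudocount of 1 were log2-transformed and fitted with limma 3.58.1 (R 4.3.3, variance trend, two-sided) over 16725 genes with at least 10 in at least 2 libraries, and Benjamini-Hochberg adjusted at 0.05. GENCODE M21 gave positions and transcript lengths for 20463 of 20555 genes. The fit was tested on simulated data. Intervals of log2 changes are at 95%, and floors of 3 reads cover counting error only. Between the libraries of a group, chi-square per degree of freedom reached 39.7 for MYC-PyMT and 54.7 for Control-PyMT, beyond counting noise, so the libraries were counted separately.

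The S100 genes, lists, tests and naming rule were chosen with earlier results of these data known. Named were the 10 genes, other S100 genes, Myc, 3 genes of smallest p per list (1 of them is not reported here) and the 3 nearest patterns to S100a8 and S100a9, with Krt8, Epcam and the genes flanking the S100 loci added as checks of tissue and place. Alternatives were pseudocounts, level filters, TMM factors from edgeR 4.0.16, upper-quartile scaling, no variance trend, a replicate block, each library left out, and removal of a lowess length trend (span 0.3).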

Additional observations from a re-analysis of the deposited data

How the results depend on the processing

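S100a13 and S100a16 kept their direction in all 14 alternatives, and their call in those with all 4 libraries. S100a1, S100a6, S100a9 and S100a11 kept their direction in all 14. Without each library in turn, 0 to 3 of the 10 S100 genes were higher and 2 to 6 lower, and 2663 to 3071 of all tested genes were higher and 2573 to 3433 lower, against 1 and 5 and against 3892 and 4118 with all libraries. Without the variance trend 0 S100 genes were higher and 3 lower, against 3280 and 3661 of all tested genes. With the length trend removed 0 were higher and 7 lower, against 3657 and 3844 of all tested genes. The causes of these differences were not tested.

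With the length trend removed, with or without the replicate block, the log2 change of S100a8 was -0.0457 (0.70 without the removal) and that of S100a14 -0.0219 (0.39 without it). Over the 4 fits that leave out a library S100a8 ranged from -0.23 to 1.64 and S100a14 from -0.43 to 1.20.

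The replicate numbers pair nothing in the labels, and deviations of same-numbered libraries correlated at -0.09 across genes. With the replicate block 2 S100 genes were higher and 6 lower, since S100a8 (limma adjusted p = 0.0364) and S100a10 (0.0421) passed too. Of all tested genes 3887 were higher and 4152 lower with the block. Outside the 10, S100g passed with the block (0.00306), and with the block and the length trend removed (0.000184). With the block and the length trend removed 1 of the 10 was higher and 7 lower, against 3614 and 3880 of all tested genes. The S100a8 SE was 0.29 with the block and 0.49 without it. Yet its replicate 2 was the higher library in MYC-PyMT and the lower in Control-PyMT. With so few libraries the limma p-values, with or without the block, rest mainly on spread pooled over genes. They do not measure the spread of S100a8 itself. Upper-quartile scaling shifted the median of all genes by -0.11 on the log2 scale and moved no call among the 10. The edgeR and DESeq2 count tests that had been listed were not run on these scaled values. S100g had no value under a level filter of 50. With 2 libraries a group, no exact test of a single gene could go below p = 0.33.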
